A study of Sus scrofa with 2 samples.

Results

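Among 8026 pig thymocytes that passed quality control, 130 cells carried at least 3 unique molecular identifiers (UMIs, counted RNA molecules) summed over CCL5, GNLY, EOMES, TBX21, IL2RB and ZNF683, and they were examined as candidate cytotoxic T or natural killer (NK) cells. They made up 1.62% of the quality-controlled cells (exact 95% binomial interval 1.36% to 1.92%). Quality control kept cells with at least 500 detected genes and at most 10% of UMIs from the 13 mitochondrial genes. The members were chosen from measured values, so every comparison between them and other cells of the same library is a description and carries no test.

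Single-cell RNA sequencing (3' counting in droplets) was performed on thymus of 2 untreated pigs of mixed breed, aged 22 weeks. One library held live total thymocytes isolated by fluorescence-activated sorting, and the other held invariant NKT (iNKT) cells enriched with magnetic beads from the same thymi and then sorted. The cells of the 2 animals went together into 1 library of each kind and the files carry no label of the animal, so there was no replicate. The intervals given here therefore cover counting error only and say nothing of the spread between pigs. Intervals of ratios treat the UMIs as independent, so they also leave out the spread between cells.

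Cytotoxic lymphocytes kill target cells with perforin and granzymes, which are stored in granules and released on contact, and they secrete chemokines such as CCL5, CCL4 and XCL1. T cells recognise targets through a receptor that signals through the CD3 chains, and most killer T cells carry CD8 as a pair of CD8A and CD8B chains, whereas NK cells lack surface CD3 and rely on receptors such as NKp46 (encoded by NCR1) and NKG2D (encoded by KLRK1). The thymus mainly produces naive T cells, and cells with effector features found in it can include innate-like T cells, thymic NK cells and cells that re-entered from the circulation.

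The total thymocyte library held 29723207 UMIs in 9112 barcodes, of which 8026 (88.1%) passed quality control at a median of 2414.5 UMIs per cell. The iNKT library held 54457966 UMIs in 12097 barcodes, of which 11273 (93.2%) passed at a median of 4210 UMIs. The libraries shared 41 cell barcodes, and 0 of the 130 members had one of them. The members held 562906 UMIs in all, at a median of 3410.5 UMIs per cell (1080 to 18806), against a median of 2396 in the 7896 other quality-controlled cells.

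Members differed in which of the 6 genes admitted them. A single rule gene was detected in 45 members, 2 genes in 47, 3 in 31 and 4 in 7, and no member carried 5 or 6. CCL5, a chemokine that recruits T cells and monocytes, was detected in 79 members with a median of 16 and a maximum of 128 UMIs per positive cell, and the members held 98.9% of all CCL5 UMIs. IL2RB, the shared beta chain of the interleukin-2 and interleukin-15 receptors, was detected in 74 members at up to 8 UMIs, but 284 other cells also had a UMI of it. ZNF683 (Hobit, a transcription factor of tissue-resident and innate-like lymphocytes) was detected in 53 members, EOMES in 32 and TBX21 (T-bet) in 17; the last 2 encode T-box factors of cytotoxic differentiation. GNLY, a granule protein that permeabilises membranes, was detected in 5 members. CCL5 was the only rule gene in 23 members, IL2RB in 10, ZNF683 in 9, EOMES in 2 and TBX21 in 1.

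**Figure D1:**
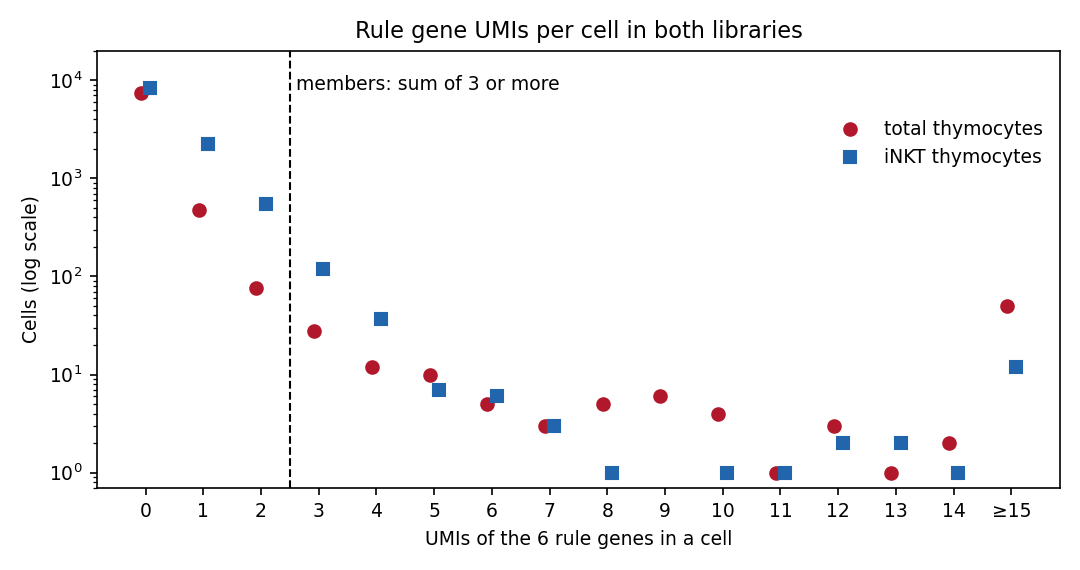
Number of quality-controlled cells (vertical axis, log scale) at each summed UMI count of the 6 rule genes (horizontal axis, last class 15 or more) in the total thymocyte and iNKT libraries, with a dashed line at the threshold of 3. In total thymocytes 7340 cells had a sum of 0 and 50 cells had 15 or more, whereas 12 iNKT-library cells reached 15 or more.

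Of the 28 members with a sum of exactly 3, 27 had a CD3E UMI, 5 had KLRK1, 5 had NKG7, 4 had GZMK, 12 had CCR7 and 4 had CCL5, at a median of 4405 UMIs per cell. Of the 77 cells with a sum of 2, which stayed outside, 75 had CD3E, 4 had KLRK1, 21 had NKG7, 3 had GZMK, 39 had CCR7 and 4 had CCL5, at a median of 4168 UMIs. CCL5 is itself a rule gene.

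The members were first separated by the T cell genes CD3E, a chain of the T cell receptor complex, and CD8B, the second chain of the CD8 coreceptor. Both genes were detected in 29 members (22.3%, exact 95% interval 15.5% to 30.4%), CD3E without CD8B in 94 (72.3%, 63.8% to 79.8%) and neither in 7 (5.38%, 2.19% to 10.8%). No member had CD8B without CD3E, which allows a share of up to 2.31% at 3 cells (exact upper bound 2.80%). CD8B was less often detected in members (22.3%) than in the other cells (55.1%). After each cell was thinned to 1500 UMIs, leaving out 9 members and 2123 other cells that were shallower, CD8B was detected in 15.7% of members and 35.5% of other cells, and CD3E in 89.3% and 78.7%. Thinning also removed CD3E from some cells. The 312 gamma-delta-like thymocytes described below all had a CD3E UMI at full depth, and 8.97% of them had none at 1500 UMIs. Neither gene was found in 9.92% of the thinned members. That share includes the 7 members already without both genes at full depth, so the 2 shares do not measure the same thing. The part of depth in the missing CD3E of members was not tested.

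CD8A was detected in 66 members (50.8%) and CD4, the coreceptor of helper T cells, in 16 (12.3%). CD8A without CD8B or CD4 was found in 44 members (33.8%), against 5.64% of the other cells and 5.13% of the gamma-delta-like cells. At 1500 UMIs per cell this pattern was seen in 24.8% of members and 6.32% of other cells.

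Against the 7896 other cells, 9116 genes had at least 100 UMIs over both groups, and the ratio of CPM (the UMIs of a gene scaled to all UMIs of the group) was at least 2-fold higher in members for 663 of them (7.27%) and at least 2-fold lower for 1105 (12.1%). Giving each cell equal weight shifted the median log2 ratio of all genes by -0.13 and gave 734 higher and 1681 lower. The genes furthest above the other cells included granzyme, NK receptor, chemokine and S100 genes, and those furthest below included genes of immature thymocytes and red cells. Here and below, genes named as furthest apart are those with the most extreme bound of the 95% interval of the ratio, with rule genes left out. The list counts of all members against the other cells below are to be read beside the shares of 7.27% and 12.1% over all genes.

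The cytotoxic granule genes were mostly higher in members. Of 21 genes tested, 11 were at least 2-fold higher and 1 at least 2-fold lower, with a median log2 ratio of 1.05 against -0.02 over all genes tested. GZMA, encoding granzyme A, stands in the annotation as 2 entries whose reads could be split between them; its second entry held 113 UMIs in 26 members and 9 UMIs in 4 other cells, a 625-fold ratio (318 to 1401). GZMK (granzyme K) was detected in 44 members and 26 other cells and was 107-fold higher (82.8 to 138). GZMM (granzyme M) was 14.4-fold higher (11.3 to 18.2), CST7, an inhibitor of the proteases that mature granzymes, 16.4-fold (14.1 to 19.0), and NKG7, a granule membrane protein, 14.3-fold (11.9 to 17.02). GZMH (granzyme H) and PRF1 (perforin) were also widely present outside the members and their ratios were 5.69 and 2.68. CTSW (cathepsin W) was detected in 83.8% of members but in 85.6% of other cells, with a ratio of 1.61. SERPINB6, a protease inhibitor, was the gene on the lower side, with 1 UMI in members against 124 and an interval of the ratio from 0.0101 to 2.28.

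Receptors and adaptors of NK cells were higher for 8 of 11 genes tested and lower for none, with a median log2 ratio of 3.04. KLRK1 was detected in 63 members (48.5%) and in 18 other cells (0.228%) and was 283-fold higher (208 to 393). KLRK1 was found in 1 of 249 mature CD8 thymocytes and 0 of 312 gamma-delta-like cells, at median depths of 3241 and 4536 UMIs, so the share in members was far above that in these T cells. FCER1G, an adaptor chain of activating receptors, was 27.7-fold higher (19.1 to 39.7) and CD96, an adhesion receptor of T and NK cells, 12.2-fold (9.01 to 16.4). CD244, a receptor of the SLAM family, was detected in 16 members and 4 other cells, with 19 and 5 UMIs. SH2D1A, the adaptor of SLAM receptors, went the other way with a ratio of 0.635.

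Chemokine genes were higher for 5 of 9 tested, with a median log2 ratio of 1.39. CCL4, which attracts T cells and monocytes, was 38.0-fold higher (31.6 to 45.7), with 207 UMIs in 27 members. XCL1, which attracts cross-presenting dendritic cells, was 24.7-fold higher (22.7 to 26.9), with 817 UMIs in 63 members. A single member held 356 of those XCL1 UMIs, and without it the ratio was 14.04. TNF was 3.11-fold lower, with 4 UMIs in the members.

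Among receptors for chemokines, adhesion and exit from tissue, 10 of 19 were at least 2-fold higher and none lower. CXCR3, a receptor for interferon-induced chemokines, was 13.2-fold higher (9.90 to 17.4). RGS1, which dampens chemokine signalling, was 5.45-fold higher, S1PR1, the receptor for exit into blood, 5.89-fold and KLF2, the factor that drives S1PR1, 3.99-fold. CXCR6, a homing receptor of tissue lymphocytes, had too few UMIs to be counted among the genes tested, with 56 in 29 members and 15 in 10 other cells. Checkpoint and costimulation genes were higher for 11 of 12 with a median log2 ratio of 2.16, including TNFRSF9 (4-1BB) at 14.6-fold (10.6 to 19.7) and TNFRSF1B at 8.98-fold. ICOS was the gene not counted as higher, with a ratio of 0.921.

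The remaining genes furthest above the other cells were S100A10 (19.8-fold), S100A1 (21.3-fold), S100A4 (12.7-fold) and S100A6 (12.1-fold), which encode calcium-binding proteins of differentiated cells, GBP1 (16.1-fold), an interferon-induced GTPase, FSCN1 (15.96-fold, and 10.6-fold without 1 cell), an actin-bundling protein, SERPINB1 (12.4-fold), an inhibitor of granule proteases, ITM2C (13.9-fold), BIN1 (12.3-fold), GSAP (14.7-fold), CAVIN3 (11.6-fold) and P2RY8 (12.02-fold). MYL4 had a ratio of 11.7, but 1 of its 3 positive members carried most of its UMIs and the ratio without that cell was 1.93.

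Transcription factors of effector cells split, with 9 of 18 at least 2-fold higher and 5 lower (median log2 ratio 1.01). IKZF2 (Helios) was 2.36-fold higher, ID2, which antagonises E proteins in innate lymphocytes, 2.497-fold and IRF1, a factor induced by interferon, 5.10-fold, whereas ZEB1, a zinc-finger repressor, was 2.22-fold lower. Of the T cell receptor genes, 5 of 23 were higher and none lower (median log2 ratio 0.49), with TRAT1, which stabilises the receptor complex, at 3.23-fold and CD247 (CD3 zeta) at 2.19-fold. Among coreceptor and lineage genes, RUNX3, the CD8 lineage factor, was 3.20-fold higher, while CD8B was 4.26-fold, CD4 3.73-fold, SATB1 3.30-fold and LEF1 2.04-fold lower.

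Genes of immature thymocytes were lower for 12 of 14, with a median log2 ratio of -2.24, and those of cell division for 24 of 30, with a median of -1.21. DNTT, which adds nucleotides at receptor gene junctions, was 10.1-fold lower, RAG2, a subunit of the recombinase, 11.1-fold, PTCRA, the surrogate alpha chain of the pre-T cell receptor, 8.36-fold and FABP6, a lipid-binding protein, 8.003-fold. SHMT1, an enzyme of folate metabolism, was 11.7-fold lower and FAM209B 13.3-fold. PLPP3, a lipid phosphatase, had 0 UMIs in members against 900 in other cells, at least 6.03-fold lower at the limit of 3 counts. At least 1 UMI of RAG1, RAG2, DNTT, PTCRA or CD1E was found in 16 of 130 members and in 68.4% of other cells. The lower side also held the haemoglobin genes HBB (1 UMI against 18007, 362-fold with an interval of 65.0 to 14297) and HBM (0 against 901 UMIs, at least 6.04-fold), and JCHAIN of plasma cells (1 against 1334 UMIs, 26.8-fold, 4.80 to 1060).

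Other cell types were nearly absent from the members. Of 8 myeloid and dendritic markers, 2 had any UMI (13 in all), and LYZ, CSF1R, S100A8, S100A12, C1QA and FLT3 were at 0. B cell markers MS4A1 and CD79B were at 0, although CD79A, a chain of the B cell receptor, was detected in 68 members at a ratio of 1.07 to the other cells, where its share was 40.5%. The iNKT cell factor ZBTB16 had 3 UMIs in 3 members. The doublet caller marked 0 of 8026 cells and so gave no usable call; the median doublet score was 0.0910 in members and 0.0769 in other cells, and its part in the results was not tested.

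The members fell into 2 unlike sets according to CCL5, a split that was chosen after the values had been seen. The 79 CCL5-positive members (median 2682 UMIs per cell) held most of the GZMK, KLRK1, CCL4 and XCL1 UMIs of the members, whereas the 51 CCL5-negative members (median 5140 UMIs) had been admitted by IL2RB, ZNF683, EOMES or TBX21. At least 1 UMI of a granzyme gene, PRF1 or GNLY was found in 71 CCL5-positive members (89.9%) and 19 CCL5-negative members (37.3%), against 81.1% of mature CD8 thymocytes, 20.5% of gamma-delta-like cells and 19.7% of other cells. Since mature CD8 thymocytes met this measure nearly as often, mainly through GZMH, and GNLY was a rule gene, it does not by itself mark cytotoxic cells. KLRK1, which the rule did not use, was detected in 60 CCL5-positive and 3 CCL5-negative members, GZMK in 43 and 1, and the second GZMA entry in 26 and 0. The CCL5-negative members thus mostly lacked these genes, and they are called here by their lack of CCL5, with no cell type name.

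**Figure D2:**
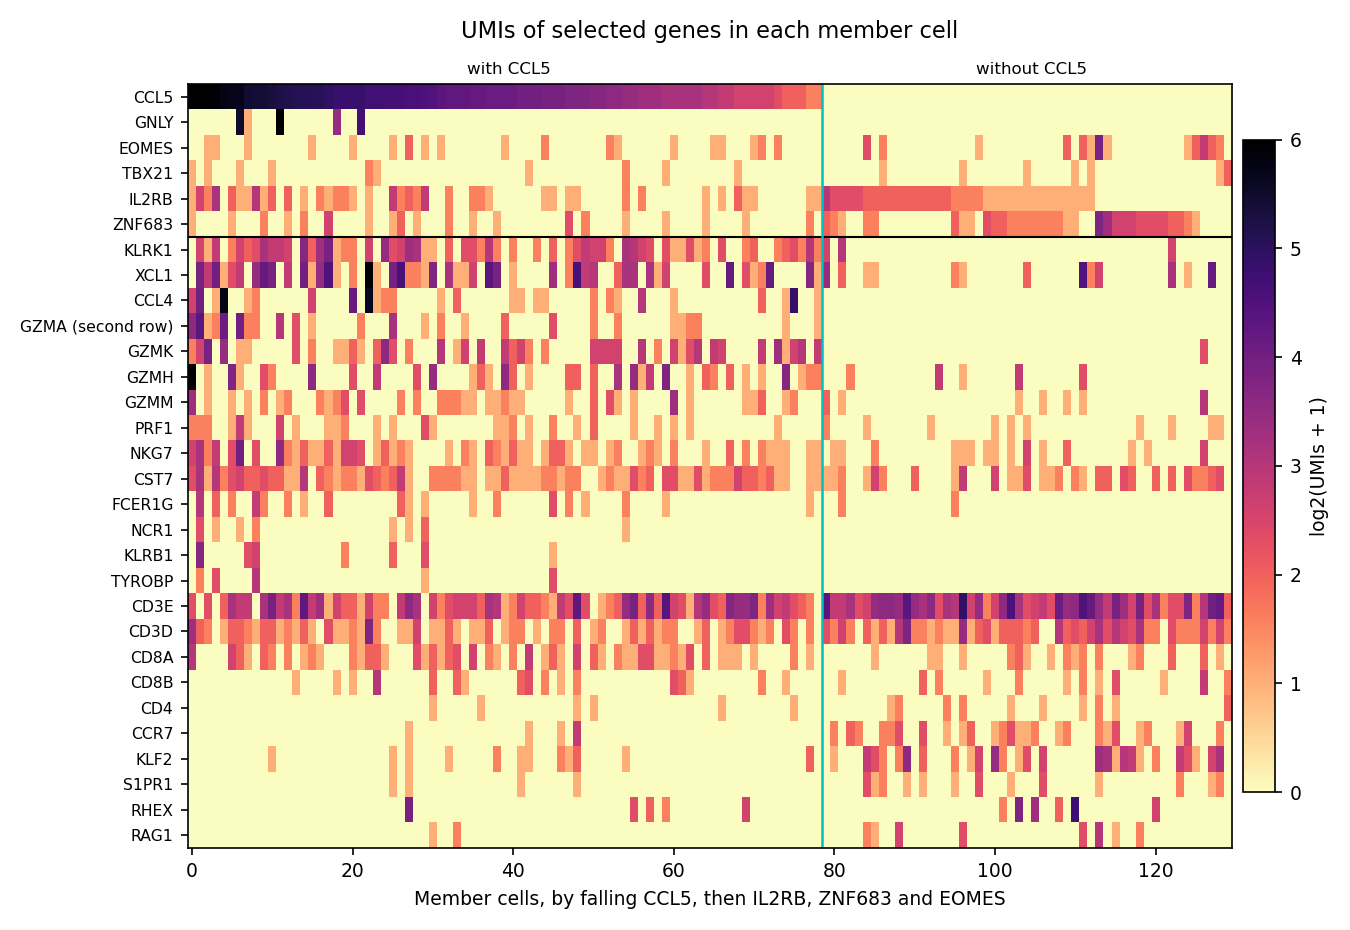
UMIs of selected genes (rows, colour on the scale log2 of UMIs plus 1) in each of the 130 members (columns), ordered by falling CCL5 and then by IL2RB, ZNF683 and EOMES, with a line between the 79 cells with and the 51 cells without CCL5. KLRK1 fills 60 of the columns left of the line and 3 to its right, and KLF2 fills 12 and 27.

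Of 1597 genes with at least 50 UMIs in the members, 107 (6.7%) were at least 2-fold higher in CCL5-positive than in CCL5-negative members and 226 (14.2%) at least 2-fold lower. With TMM scaling, which trims extreme genes before setting the library factor, the median log2 ratio shifted by 0.28 and the numbers were 167 higher and 134 lower, so the balance of directions depended on the scaling. CCL4 had 207 UMIs in 27 CCL5-positive cells and 0 in the others, at least 94.9-fold higher, and the second GZMA entry had 113 UMIs in 26 cells against 0, at least 51.8-fold higher. GZMK was 66.3-fold higher (25.5 to 246), KLRK1 20.7-fold (12.7 to 36.1), GZMH 16.1-fold (10.0 to 27.2) and XCL1 13.6-fold (10.7 to 17.5), or 7.21-fold without the cell richest in XCL1. The chemokine receptors CXCR3 and CXCR6 were detected in 34 and 28 CCL5-positive members and in 4 and 1 CCL5-negative members.

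MHC class II genes, which pig T cells can express after activation, were also unequal between the sets. The 7 genes of the list together held 6995 CPM in CCL5-positive members, 3670 in CCL5-negative members and 3726 in the other cells. The median log2 ratio of the list to the other cells was 2.51 and -0.038 in the same order of sets. Over the list the CCL5-negative members were thus near the other cells, while single genes lay further apart. SLA-DQB1 was detected in 45 CCL5-positive and 4 CCL5-negative members and was 16.04-fold higher (8.13 to 36.0), and HLA-DRA was detected in 39 and 2. Compared with the other thymocytes, SLA-DQB1 had a ratio of 7.48 in CCL5-positive members and 0.466 in CCL5-negative members, and HLA-DRA had 5.67 and 0.412. The HLA-DRA UMIs of the other cells lay in 119 of 7896 cells, with up to 105 UMIs in 1 cell. The ratio of 0.412 thus does not mean that HLA-DRA was detected in a smaller share of CCL5-negative members. Among antigen-presenting cell markers, LYZ, CSF1R, C1QA, FLT3 and MS4A1 were at 0 in all members. CST3 had 12 UMIs in 9 members, CD14 had 1 UMI and CD79A was detected in 68 members. The source of the class II transcripts was not tested.

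Interferon-response genes were at least 2-fold higher than in other cells for 11 of 15 tested in CCL5-positive members (median log2 ratio 1.54, against -0.16 over all genes, with 912 of 9096 or 10% of genes at least 2-fold higher). In CCL5-negative members 3 of 14 were higher (median 0.56 against 0.09, with 7.5% of all genes higher). IFI6 had a ratio of 13.8 in CCL5-positive and 2.17 in CCL5-negative members, ISG15, a ubiquitin-like modifier, 8.07 and 1.82, and IFIT1, which binds viral RNA, 16.8 and 0.914. GBP1 was 13.6-fold higher in the CCL5-positive than in the CCL5-negative members.

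In the other direction, MDK, a heparin-binding growth factor, had 181 UMIs in 24 CCL5-negative members and 0 in CCL5-positive members, at least 43.9-fold lower there. HES1, a Notch target, was 58.2-fold lower in CCL5-positive members (1 UMI against 80; 10.1 to 2327), and LEF1, a factor of developing and naive T cells, 9.54-fold (4.86 to 21.4). STMN1, a microtubule regulator of dividing cells, was 9.16-fold lower (4.82 to 19.6), HMGN2, a chromatin protein, 9.64-fold, NET1, an activator of RHOA, 20.4-fold (2 UMIs against 56; 5.38 to 172), SGK1, a kinase, 12.1-fold (3 against 50; 3.92 to 60.8) and TIAM1, an activator of RAC1, 11.6-fold (3 against 48; 3.75 to 58.4). AVP, the vasopressin precursor, was 15.5-fold lower (3 against 64; 5.08 to 77.2) and TFDP2, a partner of E2F factors, 7.76-fold. CCR7, the receptor that guides maturing thymocytes to the medulla, was detected in 26 of 51 CCL5-negative and 4 of 79 CCL5-positive members.

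CCL5-negative members had in turn their own differences from the rest of the library. KLF2 was 5.97-fold and S1PR1 8.77-fold above the other cells, against 1.26 and 1.93 in CCL5-positive members. At least 1 UMI of CCR7, KLF2 or S1PR1 was present in 37 of 51 CCL5-negative and 12 of 79 CCL5-positive members. Of the 14 immediate early and receptor response genes tested, 2 were at least 2-fold higher and 3 lower in CCL5-negative members (median log2 ratio 0.19 against 0.09 over all genes), and 3 higher and 4 lower in CCL5-positive members (median -0.20 against -0.16). Of all genes tested, 7.5% were higher and 11.6% lower in CCL5-negative members, and 10% and 26.7% in CCL5-positive members. Among single genes, picked after their values were seen, ratios to the other cells in CCL5-negative members were 5.13 for NR4A1, 22.0 for TNFRSF9, 4.09 for CD40LG, 3.88 for PDCD1 and 2.25 for TOX, against 0.153, 4.33, 0.511, 1.03 and 0.465 in CCL5-positive members. NR4A3 had a ratio of 11.3 in CCL5-negative members and 0 UMIs in CCL5-positive members, where the upper bound of the ratio was 1.93, so a lower level than in other cells was not detectable. IKZF2 was 3.23-fold higher and VIM (vimentin) 7.44-fold. NR4A1 and NR4A3 rested on 9 and 8 cells.

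Some traits did not separate the sets as cleanly. S100A4 was 12.4-fold above the other cells in CCL5-positive and 12.9-fold in CCL5-negative members. CST7 was 27.1-fold and 8.64-fold higher, and CD96 21.0-fold and 5.83-fold. Immature thymocyte genes were lower for 13 of 14 in CCL5-positive and 11 of 14 in CCL5-negative members (median log2 ratios -2.72 and -2.29, where 26.7% and 11.6% of all genes were lower), and cell division genes for 30 of 30 and 14 of 30. RAG1, RAG2, DNTT, PTCRA or CD1E was found in 5 CCL5-positive and 11 CCL5-negative members. The median doublet score was 0.0842 in CCL5-positive and 0.0985 in CCL5-negative members, each set had 6 cells among the highest-scoring 8%, and the part of doublets in the CCL5-negative set was not tested.

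**Figure D3:**
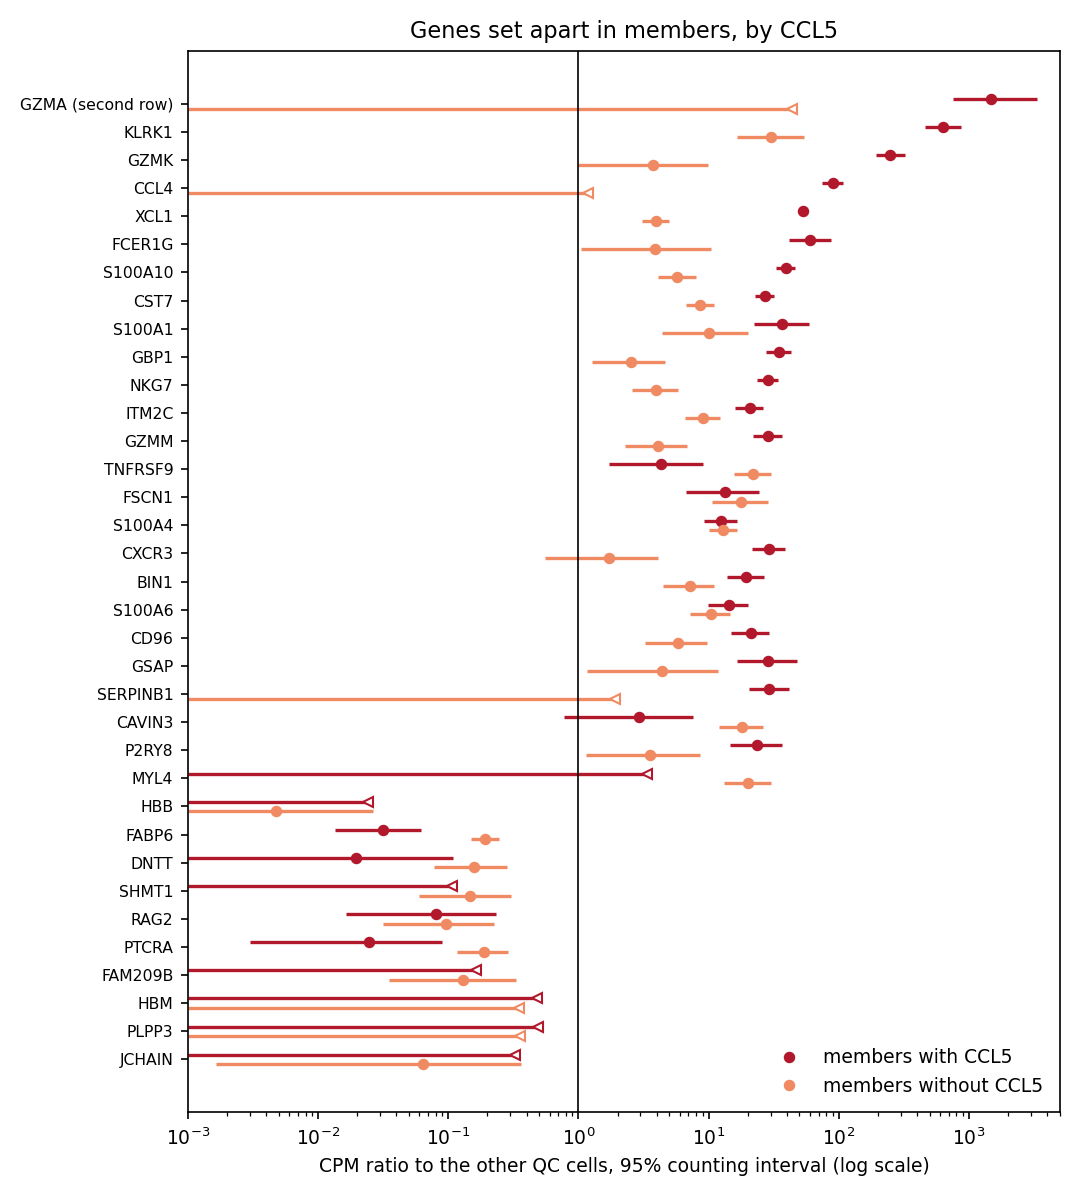
Ratio of CPM to the other quality-controlled cells (horizontal axis, log scale, 95% intervals) for the 35 named genes, drawn separately for members with and without CCL5, with open triangles at the upper bound where a set had 0 UMIs. KLRK1 stands at 630 with CCL5 and 30.4 without, and TNFRSF9 at 4.33 with and 22.0 without.

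The 7 members without CD3E were all CCL5-positive, and 5 of them carried NCR1. Given in the same order throughout, these 5 cells had 121, 22, 41, 60 and 24 CCL5 UMIs, 4, 3, 2, 1 and 1 NCR1 UMIs, and 5, 6, 7, 8 and 6 IL2RB UMIs, at 5900, 2773, 4896, 5949 and 3483 UMIs in total. KLRB1, an NK receptor of the lectin family, had 12, 4, 5, 0 and 3 UMIs, KLRK1 had 5, 1, 4, 6 and 4, and TYROBP, the adaptor of activating NK receptors, had 2, 1, 7, 4 and 0. XCL1 had 14, 1, 10, 15 and 14 UMIs and the second GZMA entry 19, 1, 2, 2 and 8. The first and the third of these cells had 3 and 1 CD3D UMIs and the fifth had 4 CD247 UMIs, so CD3 chain transcripts were not wholly absent.

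The remaining 2 CD3E-negative cells had no NCR1, KLRB1, TYROBP or FCER1G UMI. They had 2 and 12 CCL5 UMIs, 6 and 5 GZMK UMIs, 2 and 3 GZMH UMIs and 2 and 5 KLRK1 UMIs, at totals of 1867 and 1652. The second of them carried CD8A, CD4, CD3D and CD247 UMIs. NCR1, KLRB1, TYROBP and FCER1G were each found in 4 or 5 of the other 5 cells, whereas KLRK1 was found in all 7, and these 2 cells were the shallowest of the 7.

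NCR1 was not confined to cells without CD3E. It was detected in 8 members (14 UMIs), of which 3 had CD3E as well and 1 NCR1 UMI each, in 0 of 7896 other cells (exact upper bound 0.0467%) and in no cell of the iNKT library. KLRB1 was detected in 7 members (31 UMIs) and 1 other cell, and KLRD1 (CD94) in 5 members (6 UMIs) and no other cell. TYROBP was detected in 4 of the 5 NCR1-positive cells without CD3E, in 1 of the 72 CCL5-positive cells with CD3E and in none of the CCL5-negative members. IL2RB reached 5 to 8 UMIs in the 5 cells and 0 to 3 UMIs in the 72.

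Between the 123 CD3E-positive and the 7 CD3E-negative members, 506 of 1601 genes (31.6%) were at least 2-fold higher with CD3E and 94 (5.87%) lower. TMM scaling shifted the median log2 ratio by -0.28 and gave 420 higher and 180 lower. The CD3E-negative set rests on 7 cells. All 7 had CCL5, whereas 51 of the 123 members with CD3E had none, so these ratios also hold the difference between the CCL5 sets. Within the CCL5-positive members, a comparison added after the values were seen, 82 of 528 genes (15.5%) were at least 2-fold higher in the 72 cells with CD3E than in the 7 without and 22 (4.17%) lower.

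Of 13 T cell receptor genes tested, 7 were higher with CD3E and none lower (median log2 ratio 1.24 against 0.19 over all genes); ZAP70, the kinase of the receptor, had 135 UMIs in 75 cells against 0, and GATA3, a T lineage factor, 154 UMIs in 59 cells against 0, at least 2.54-fold. CD247 was 5.72-fold higher (2.44 to 17.7). Within the CCL5-positive members 4 of 7 such genes were higher and none lower, with ZAP70 at least 2.604-fold (62 UMIs against 0) and CD247 4.91-fold (2.07 to 15.3). Also higher over all members with CD3E were genes with ratios of 21.3 for H2AFZ (430 UMIs against 1; 3.796 to 842), 16.5 for HMGB2 (334 against 1; 2.94 to 654), 3.801 for TUBA1B and 10.8 for EVL, an actin regulator (218 against 1; 1.91 to 428), and at least 3.72 for NUCKS1, 2.98 for MDK and 2.31 for PCNA, each against 0 UMIs. All 181 MDK UMIs lay in CCL5-negative members, and within the CCL5-positive members the ratios were 7.43 for H2AFZ, 10.7 for HMGB2, 7.05 for EVL and 1.95 for TUBA1B (0.961 to 4.62).

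Of 15 granule genes tested, 5 were at least 2-fold higher with CD3E and 5 lower (median log2 ratio 0.10 against 0.19). Over all genes tested 31.6% were higher and 5.87% lower. The granule share on the higher side was thus near that of all genes, and the share on the lower side was above it. The second GZMA entry was detected in 19 of 123 members with CD3E and 7 of 7 without, and was 9.08-fold lower with CD3E (5.91 to 13.7), or 3.56-fold lower (2.32 to 5.37) within the CCL5-positive members. IFITM3 was 10.3-fold lower (6.29 to 16.5), ISG15 8.49-fold (6.08 to 11.7), GBP1 7.04-fold (4.52 to 10.7), EPSTI1 6.60-fold and IFI6 3.49-fold, and all 5 interferon-response genes tested were lower with CD3E. Within the CCL5-positive members IFITM3 was 5.17-fold, ISG15 5.02-fold, GBP1 3.15-fold and IFI6 1.73-fold lower (1.29 to 2.29 for IFI6, which then fell short of 2-fold), and 1 of the 2 interferon-response genes that could still be tested was lower. IFI6 had 25, 6, 10, 4, 7, 8 and 2 UMIs in the 7 cells. FUNDC1, a mitochondrial membrane protein, and GIMAP4, a GTPase of lymphocytes, were 4.97-fold and 4.11-fold lower, and 3.05-fold and 2.06-fold within the CCL5-positive members. With the 5 NCR1-positive cells alone as the CD3E-negative set, 595 genes were higher and 88 lower. These counts were taken against members with CD3E of both CCL5 sets, so they also hold the difference between those sets. No number of genes tested is given for them, so they carry no share and are not set against the counts over all 7 cells.

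The 29 members with CD8B were also set against the 101 without it. Of 1601 genes, 45 (2.81%) were at least 2-fold higher in the CD8B-positive members and 65 (4.06%) lower. All 5 immature thymocyte genes tested were higher (median log2 ratio 1.35 against 0.05), led by FABP6 at 15.1-fold (8.21 to 29.8; 7.70 without its richest cell), SATB1 at 3.25-fold and CD1B, an antigen-presenting molecule of cortical thymocytes, at 3.11-fold. Division genes were higher for 4 of 7, but TOP2A (8.08-fold, and 5.43-fold without 1 cell) was found in 3 CD8B-positive and 4 CD8B-negative members, and SMC2 (4.79-fold, 2.93-fold without 1 cell), NUSAP1 (4.37-fold, 2.71-fold) and RPA3 (4.38-fold, 2.13-fold) also leaned on single cells. HMGB2, TUBB4B and HMGN2 were 3.13-fold, 3.47-fold and 3.71-fold higher.

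XCL1 was 3.28-fold lower in CD8B-positive members (2.58 to 4.23), in 11 of 29 against 52 of 101 cells, and KLRK1 2.82-fold (1.90 to 4.32), in 10 against 53. The second GZMA entry was 3.31-fold lower, VIM 2.63-fold, ISG15 2.83-fold, LAT2, a signalling adaptor, 3.91-fold, ELK3, a transcription factor, 3.58-fold, TNFRSF9 8.69-fold (2 UMIs against 54; 2.29 to 73.6) and SGK1 5.36-fold (3 against 50; 1.73 to 26.9). CD8B was detected in 17 of 79 CCL5-positive and 12 of 51 CCL5-negative members, sets of unequal depth. At 1500 UMIs per cell the shares were 18.6% (10.3% to 29.7%) and 11.8% (4.44% to 23.9%), with overlapping intervals. Summed CD8B levels were 169 and 79.8 CPM in the same order. Whether the CD8B split followed the CCL5 split was not tested.

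Within the CCL5-positive cells, CD8A was detected in 49 (62.0%) and CD8B in 17 (21.5%). At 1500 UMIs per cell the shares were 47.1% and 18.6%, against 38.2% and 65.9% in mature CD8 thymocytes, where CD8B was part of the definition. CD8A without CD8B or CD4 was found at this depth in 32.9% of CCL5-positive members, 13.7% of CCL5-negative members, 11.8% of mature CD8 thymocytes and 1.603% of gamma-delta-like cells.

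**Figure D4:**
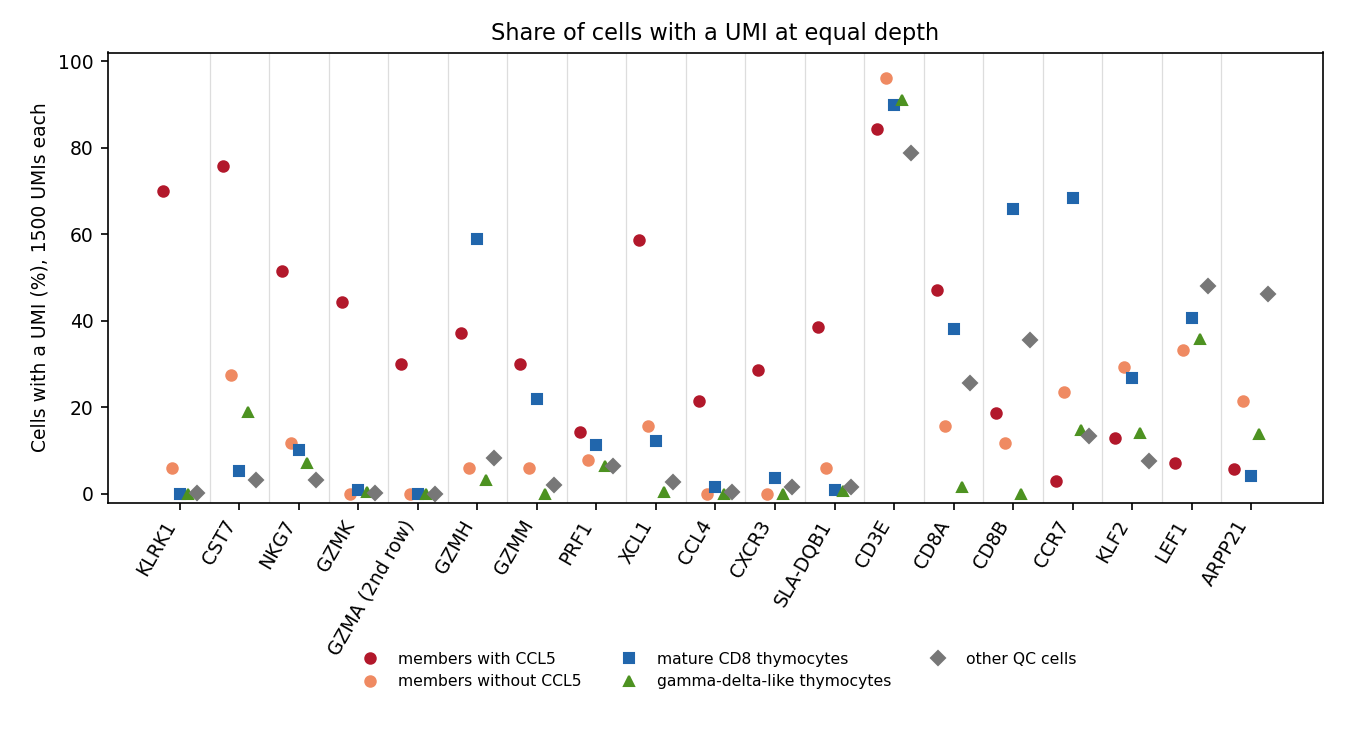
Share of cells with at least 1 UMI (percent) of 19 genes after thinning to 1500 UMIs, in members with and without CCL5, mature CD8 thymocytes, gamma-delta-like thymocytes and the other cells; CCR7 and CD8B in mature CD8 cells and CD8B in gamma-delta-like cells were set by the definitions of those groups. KLRK1 was detected in 70.0% of CCL5-positive and 5.88% of CCL5-negative members, and GZMH in 37.1% and 5.88%, against 58.9% of mature CD8 thymocytes.

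A second pattern, also noticed in the values, ran through the 72 CCL5-positive cells with CD3E. GZMK and abundant XCL1 (at least 4 UMIs) seldom met in 1 cell. GZMK without abundant XCL1 (called GZMK alone) was found in 37 cells and abundant XCL1 without GZMK (called XCL1 alone) in 26. Both were found in 2 cells and neither in 7. Of the 37 cells, 12 had some XCL1 below the bound (17 UMIs in all), so the split depended on that bound. Cells without CD3E were left out, and among them GZMK and XCL1 met at 5 and 14, 4 and 14, and 5 and 7 UMIs. Cells with GZMK alone were shallower, at a median of 1843 UMIs against 3294, and thinning to 1500 UMIs with a bound of 2 XCL1 UMIs gave 25, 25, 2 and 11 cells in the same order. Both kinds of cell carried KLRK1, in 22 of 37 and 24 of 26, and NKG7, in 24 and 18.

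Other genes were spread unevenly over these kinds of cell. CD8B was detected in 14 of the 37 cells with GZMK alone and 2 of the 26 with XCL1 alone, CCL4 in 19 and 1, the second GZMA entry in 15 and 1, and FCER1G in 1 and 13. CD8A was detected in 21 cells of each kind, and GZMH in 15 and 14. The GZMK cells were thus more often positive for CD8B although they were shallower, and the XCL1 cells more often for FCER1G, and the part of their greater depth in this was not tested.

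**Figure D5:**
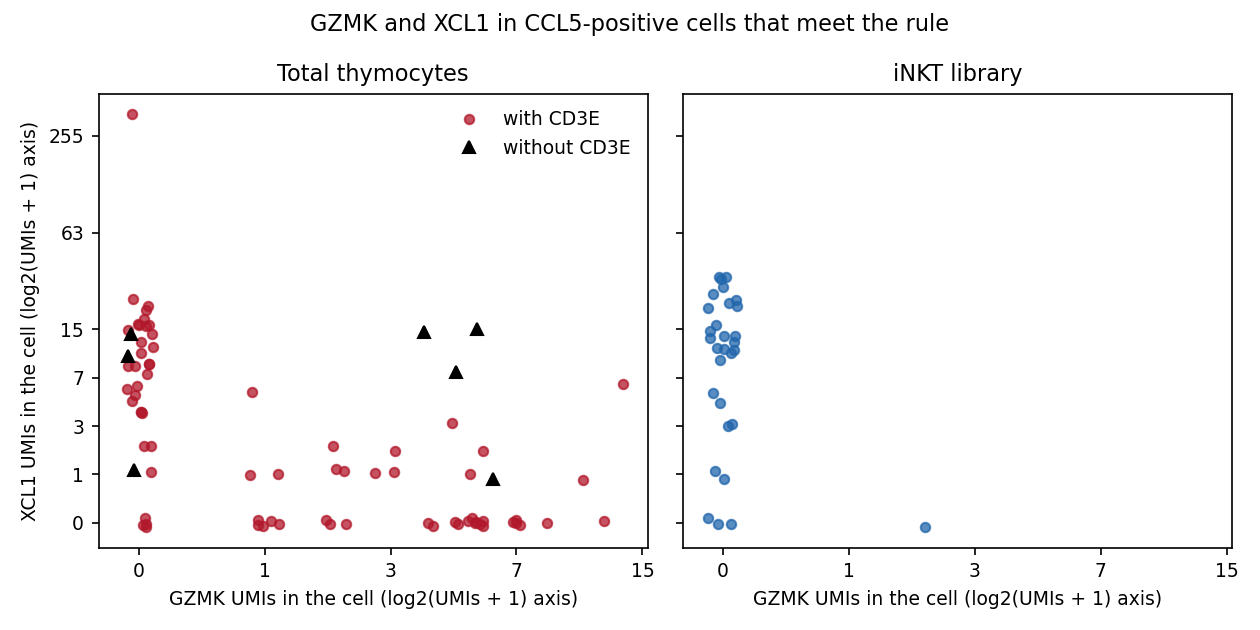
GZMK against XCL1 UMIs in each CCL5-positive cell meeting the rule (both axes log2 of UMIs plus 1, small jitter added), in total thymocytes with and without CD3E and in the iNKT library. Of the 72 cells with CD3E, 37 lie along the GZMK axis below 4 XCL1 UMIs and 26 along the XCL1 axis, and 22 of the 30 iNKT-library cells lie along the XCL1 axis.

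GNLY was found in 5 CCL5-positive cells, all with CD3E, at 85, 44, 24, 10 and 1 UMIs in cells of 4469, 4371, 2239, 3539 and 3715 UMIs. The same cells had 37, 50, 27, 27 and 43 CCL5 UMIs, 5, 6, 0, 1 and 1 PRF1 UMIs and 11, 15, 4, 1 and 0 NKG7 UMIs. CTSW had 18, 32, 10, 13 and 10 UMIs. These few cells held 99.4% of the library's GNLY UMIs, so any value of GNLY over the members rests on them.

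Mature CD8 thymocytes were taken as the nearest T cells of the library: 249 non-members with CD3E, CD8B and CCR7 and without CD4, RAG1, DNTT, PTCRA or CD1E. Of 1963 genes, 81 (4.13%) were at least 2-fold higher in members and 29 (1.48%) lower; TMM scaling shifted the median log2 ratio by -0.13 and gave 64 and 42. KLRK1 was 430-fold higher (273 UMIs against 1; 76.6 to 17060), the second GZMA entry at least 59.4-fold (113 against 0) and GZMK 31.1-fold (16.5 to 65.8). S100A4 was 29.1-fold higher, SLA-DQB1 19.97-fold (in 49 members and 2 CD8 cells), CST7 10.6-fold, GBP1 10.5-fold, S100A10 8.12-fold, CCL4 8.16-fold and GPR183, a receptor for oxysterols that positions lymphocytes, 9.54-fold.

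GZMH ran against this: it was detected in 179 of 249 mature CD8 thymocytes and 40 of 130 members, a ratio of 0.490 (0.422 to 0.566). In CCL5-positive members the ratio to mature CD8 cells was 1.07 (0.918 to 1.24) and in CCL5-negative members 0.0667 (0.0399 to 0.105). Of 15 granule genes tested against mature CD8 cells, 5 were at least 2-fold higher in members and GZMH alone was lower, and in CCL5-positive members 6 of 13 were higher and none lower, where 4.77% of all genes were higher and 7.32% lower. NKG7 was 6.29-fold higher in CCL5-positive members (4.74 to 8.38) and had a ratio of 0.874 in CCL5-negative ones (0.539 to 1.37), an interval that includes equality.

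Genes lower in members than in mature CD8 cells were RGS10, a regulator of G protein signals, at 3.58-fold, SATB1, a chromatin organiser of thymocytes, at 3.30-fold, IGFBP2 at 3.62-fold, RETREG1 at 3.56-fold, MYOM1 at 3.62-fold, TPM2 at 3.20-fold, PDK1 at 2.84-fold, MBP at 3.13-fold, CYTH1 at 2.87-fold and RCAN3 at 2.57-fold. RGS10 was detected in 12 of 79 CCL5-positive members, 35 of 51 CCL5-negative members and 206 of 249 mature CD8 cells. LEF1 had a ratio to mature CD8 cells of 0.112 (0.0505 to 0.215) in CCL5-positive and 1.06 (0.853 to 1.32) in CCL5-negative members. For KLF2 these ratios were 0.324 and 1.53. By RGS10, LEF1 and KLF2 the CCL5-negative members lay nearer to the mature CD8 cells than the CCL5-positive members did. GZMH, given above, went the other way, with the CCL5-positive members nearer. MDK (10.3-fold), TNFRSF9 (9.53-fold), IKZF2 (4.90-fold) and TOX (2.81-fold) were higher in CCL5-negative members than in mature CD8 cells. In that comparison 4.58% of 1660 genes were at least 2-fold higher and 2.11% lower.

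Gamma-delta-like thymocytes, the other comparison, were 312 non-members with at least 2 UMIs of SOX13 and RHEX and without CD4 or CD8B. Of 3219 genes, 105 (3.26%) were at least 2-fold higher in members and 149 (4.63%) lower. XCL1 was 607-fold higher (817 UMIs against 4; 236 to 2235), KLRK1 at least 271-fold, CCL4 at least 205-fold and the second GZMA entry at least 112-fold, each against 0 UMIs, and GZMK 586-fold (197 against 1; 104 to 23258). CD8A was 26.4-fold higher (15.7 to 47.4), GBP1 27.5-fold, SLA-DQB1 22.6-fold, S100A10 17.6-fold and GZMH 15.9-fold. Lower in members were ETV5, a factor of the gamma-delta lineage, at 38.8-fold (15.03 to 143), BLK, a SRC family kinase, at 5.55-fold, IL9R at 22.7-fold (2 UMIs against 135; 6.16 to 189), ETS2 at 20.5-fold (2 against 122; 5.56 to 171), SLC45A3 at 30.4-fold (2 against 181; 8.30 to 253), LPAR3 at 13.8-fold (3 against 123; 4.61 to 67.8), ATF5 at 19.6-fold, LPL at 11.2-fold, PHGDH at 7.75-fold and ZNF462 at 7.32-fold. Taken by set, 122 of 2780 genes (4.39%) were at least 2-fold higher and 514 (18.5%) lower in CCL5-positive members than in gamma-delta-like cells, and 58 of 2936 (1.98%) and 112 (3.81%) in CCL5-negative members. GZMM had ratios of 537 (76 UMIs against 1, interval 93.5 to 21478) and 77.1 (15 against 1, interval 11.9 to 3244), and TRAT1 of 20.6 and 5.81, in the same order of sets. By summed UMIs both sets thus stood above the gamma-delta-like cells in these genes. The 15 GZMM UMIs of the CCL5-negative members lay in 7 of 51 cells, and 1 cell held 7 of them.

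The gamma-delta definition itself was met by 10 members, 5 in each CCL5 set, and the mature CD8 definition by 4, of which 1 had CCL5. FOXP3, the factor of regulatory T cells, was detected in 3 members, all CCL5-negative, and TOP2A in 2 CCL5-positive and 5 CCL5-negative members. Of the 7896 other cells, 312 met the gamma-delta and 249 the mature CD8 definition. Most members met neither definition, and so did most other cells.

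In the iNKT library the same rule was met by 191 of 11273 cells (1.69%, 1.46% to 1.95%) at a median of 6079 UMIs, mostly through IL2RB. That gene was detected in 178 and was the only rule gene in 154, and GNLY was at 0. At 1500 UMIs the rule was met by 27 of 11129 iNKT-library cells (0.243%) and 76 of 5894 total thymocytes (1.29%), so the near-equal shares at full depth did not hold at equal depth.

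CCL5 was detected in 30 of the 191 cells, at a median of 3508.5 UMIs per cell. Of these 30, 25 had KLRK1, 26 XCL1, 24 CD8A and 1 CD8B, 26 CST7, 19 GZMH and 30 CD3E, whereas 1 had GZMK and 0 had the second GZMA entry or NCR1. ZBTB16, the factor that defines iNKT cells, was detected in 5 of the 30 and in 6100 of the 11082 cells that did not meet the rule, and KLRK1 in 9 of the latter. At 1500 UMIs, GZMK was detected in 44.3% of the CCL5-positive total thymocytes and 0% of 29 CCL5-positive iNKT-library cells (exact upper bound 11.9%), XCL1 in 58.6% and 82.8%, KLRK1 in 70.0% and 65.5%, CD8B in 18.6% and 0%, and CCR7 in 2.86% and 17.2%. The exact intervals did not overlap for GZMK (32.4% to 56.7% in total thymocytes), but they overlapped for CD8B (10.3% to 29.7%, and up to 11.9%) and for CCR7 (0.348% to 9.94%, and 5.85% to 35.8%). With 1 library of each kind none of these differences was tested.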

How the data were processed

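Total thymocytes and bead-enriched iNKT thymocytes of 2 pigs were profiled, 1 library each. The authors deposited raw UMI counts per gene and cell for each library, made with Cell Ranger 3.1.0, per the file headers. The submitters' processing notes name Cell Ranger 3.1 and Seurat 3.1 without their roles. Which genome build and annotation were used is not given in the sources used here. Each matrix held 21301 genes, of which 14846 carried a symbol, 687 took one from a gene name table and 5768 had none. Symbols of GZMB, MKI67, FCGR3A and some other listed genes matched no gene, and 398 of 464 listed genes in 22 lists were found. The members, lists, comparison groups and tests were chosen with earlier results of these data known. UMIs were summed over the cells of a group; a ratio is that of CPM values computed here from those sums, with an exact conditional binomial 95% interval, and log2 ratios had 0.5 added to each sum. Genes with at least 100 UMIs over both groups (50 within the members) were tested for a 2-fold difference, which is a threshold of size and not a statistical test, since cells are not replicates. Where a group had 0 UMIs the fold is a lower bound at 3 counts. Shares carry exact Clopper-Pearson intervals. Named genes were the 25 highest and 10 lowest against the other cells and the 10 highest and 10 lowest in each other contrast, by the nearer interval bound, without rule, ribosomal and mitochondrial genes, plus list genes named by UMIs; other genes were named after their values were seen. Doublets were scored with Scrublet in scanpy 1.11.5 at an expected rate of 8%; no cell was removed. TMM factors came from edgeR 4.0.16 (R 4.3.3). Ratios were tested on simulated data. Python 3.11.15, numpy 2.4.6, scipy 1.17.1 and matplotlib 3.10.9 were used. The closing section gives the effect of 16 alternative settings and of those added later.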

Additional observations from a re-analysis of the deposited data

How the results depend on the processing

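In the following, higher and lower count genes at least 2-fold apart. Alternatives that change or thin the cells, or change the UMI minimum, also change the number of genes tested. That number is not given here, so these counts carry no share. A larger or smaller count thus does not by itself mean more or fewer differences. No paired analysis was possible because there was 1 library per cell population and no replicate number. Of 212 values of the main results under alternatives 113 moved by less than their limit and 99 by more. The share of members ranged from 1.06% to 2.58%. With a sum of at least 2, members were 2.58% and iNKT-library cells 6.51%, and the counts were 422 higher and 597 lower against other cells, 995 and 251 by CD3E, 151 and 144 by CD8B, 137 higher against mature CD8 cells, and 162 and 450 by CCL5. With a sum of at least 4 they were 1.27% and 0.648%, with 319 and 52 by CD3E. Without CCL5 in the rule (sum of at least 2) they were 2.08% and 6.37%, with 412 and 609 against other cells, 1005 and 212 by CD3E, 149 and 156 by CD8B, 126 higher against mature CD8 cells, 578 lower by CCL5, and an MHC class II median of -0.021. With at least 2 rule genes they were 1.06% and 0.293%, with 265 and 44 by CD3E, 63 and 119 by CCL5, and MYL4 at -2.08 (log2). Thinned to 1500 UMIs they were 1.29% and 0.243%. The CD3E share was then 86.8% of the 76 cells that met the rule after thinning, a different set from the thinned members described earlier. The counts were 1857 lower against other cells, 13 and 4 by CD3E, 5 and 12 by CD8B, 15 and 11 against mature CD8 cells, 26 and 62 against gamma-delta-like cells, and 23 and 11 by CCL5. At most 5% mitochondrial UMIs gave a CD3E share of 87.5% and a CD8B share of 10.4%, 100 and 18 by CD3E, 19 higher by CD8B, 35 and 14 against mature CD8 cells, 39 higher against gamma-delta-like cells, and 38 and 64 by CCL5. Equal weight per cell gave 1681, 48 and 250 lower against other, mature CD8 and gamma-delta-like cells. A minimum of 20 UMIs gave 1212 and 1902 against other cells, 1352 and 369 by CD3E, 210 and 330 by CD8B, 497 and 262 against mature CD8 cells, 484 and 543 against gamma-delta-like cells, and 274 and 666 by CCL5; a minimum of 500 (200 within members) gave 241 and 492, 50 and 10, 3 and 6, 8 and 4, 12 and 19, and 24 and 30 in the same order, and an NK list median of -0.65. Against other cells without immature transcripts, the counts were 216 and 306, and the log2 ratios of FABP6 (0.51), DNTT (8.60), RAG2 (8.05), PTCRA (9.51), the immature list (0.15) and the division list (0.036) reversed, for RAG2, DNTT and PTCRA by the construction of that group. Against other cells without TOP2A, used alone because MKI67 was not matched, HBM (1.39) and the division list (0.26) reversed. Leaving out members with immature transcripts gave 298 and 53 by CD3E, 21 higher by CD8B, 225 lower against gamma-delta-like cells and 139 lower by CCL5. Leaving out the highest doublet scores gave 23 higher by CD8B. TMM gave 180 lower by CD3E, and 167 and 134 by CCL5. Added after the values were seen, CCL5-positive members alone gave 82 and 22 by CD3E, with fewer genes tested, and 2432, 106 and 514 lower against other, mature CD8 and gamma-delta-like cells, with MYL4 at -1.17, and CCL5-negative members alone 58 higher against gamma-delta-like cells, with CCL4 at -2.66, SERPINB1 at -1.98 and the MHC class II list at -0.038. Where no construction is named, the cause was not tested. Depth limits every statement on single cells, since a gene without a UMI may still be expressed.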

Other observations

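Some genes of other lists, picked after their values were seen, differed between the sets in their ratio to the other thymocytes. FAS, a death receptor, had a ratio of 18.2 in CCL5-positive and 3.31 in CCL5-negative members, PMAIP1, a BH3-only protein, 7.96 and 0.948, STAT4, which transmits interleukin-12 signals, 11.4 and 1.65, and IL6R 15.4 and 0.747. TGFBR2, a receptor of TGF-beta, had 6.09 and 1.48. BCL2L1, which opposes cell death, was 2.70-fold lower in all members than in the other cells. Over the survival and death list, 3 of 12 genes tested were at least 2-fold higher in members and 1 lower, with a median log2 ratio of 0.28 against -0.02 over all genes. Of all genes tested, 7.27% were higher and 12.1% lower.

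Some genes had too few UMIs to be counted among the genes tested. LAG3 was detected in 16 CCL5-positive and 2 CCL5-negative members, TIGIT in 11 and 0, ISG20, an interferon-induced nuclease, in 14 and 0, and PRDM1 (Blimp-1) in 7 and 0. KLRG1 was detected in 2 CCL5-positive and 7 CCL5-negative members. The monocarboxylate transporter SLC16A1 had 0 UMIs in the CCL5-positive and 20 in the CCL5-negative members, with detection in 14 of the latter.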
